A study of Mus musculus with 2 samples.

Results

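Wnt pathway genes were followed in embryonic mouse hearts at day E13.5, past the middle of gestation, when atria and ventricles can be told apart. The set holds 57 of the 55348 gene entries in the deposited tables, taken by gene name. It was chosen with earlier results of these data known. The set holds all Wnt ligands, the frizzled receptors and the co-receptors Lrp5, Lrp6, Ror1 and Ror2. It also holds the secreted Sfrp and Dkk antagonists, the R-spondins with Lgr4, Lgr5 and Lgr6, and the ligases Rnf43 and Znrf3. The TCF/LEF factors and the feedback inhibitors Axin2, Nkd1 and Notum complete it. The study held 2 RNA-seq libraries of strain 129sv, 1 of wild-type hearts and 1 of Lmna H222P/H222P hearts. Both Lmna copies of the latter carry H222P, a missense change in the gene of lamins A and C that is used to model laminopathy, and the study's title concerns the histone demethylase LSD1. The labels name no treatment with an agent and give neither the number of hearts behind a library nor their sex, and counts per gene cannot show a missense change, so the genotype rests on the labels. The wild-type library had 32669225 reads on genes and the Lmna H222P/H222P library 25120790, and paired values are given in that order. With 1 library per genotype there is no test between genotypes and no value has a replicate check, so each difference is one between these libraries. Intervals are exact 95% binomial (Clopper-Pearson) intervals that cover counting error only.

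Wnt proteins are secreted, lipid-modified ligands that bind frizzled receptors. Together with Lrp5 or Lrp6 this binding protects beta-catenin from a destruction complex, so that it reaches TCF/LEF factors on DNA, while other Wnt signals run through Ror receptors or planar cell polarity proteins without beta-catenin. In heart development the beta-catenin branch acts on the growth of progenitors and valve cushions, and Wnt5a and Wnt11 are known for their part in the outflow tract.

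Both libraries held the defining markers of heart muscle, but they differed in the RNA of other tissues. The 10 heart muscle markers summed to 26609 and 14292 CPM (reads scaled to a common library size), with 7 of 10 at least 1.5-fold lower. In the H222P library all 13 hepatocyte markers were higher by 1.5-fold or more (summed level 35.4 CPM against 6239 CPM), as were 8 of 9 red cell precursor markers, 5 of 7 lung and foregut mesenchyme markers and 5 of 8 neural markers. No marker of these lists was at 0 in either library. In bulk RNA, fewer cells of a type and less RNA per cell cannot be told apart.

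Most measured Wnt pathway members lay within 1.5-fold between the libraries. Reads on the 57 members made up 0.152% of reads on genes in the wild-type library (0.151 to 0.153) and 0.163% in the H222P library (0.162 to 0.165). On the TMM scale used for all ratios the order was the other way, with summed levels of 1601 and 1549 CPM (log2 ratio −0.05, −0.07 to −0.03). At a mean of at least 1 CPM, 45 members counted as measured. Of these, 9 were higher in the H222P library by 1.5-fold or more (Dkk1, Lgr5, Wnt9b, Fzd10, Fzd5, Lef1, Notum, Rspo3 and Dkk2), 6 were lower by that much (Wnt16, Fzd9, Fzd6, Wnt7b, Fzd8 and Wnt2), and 30 lay between. Among all 14716 measured genes, 10.9% were at least 1.5-fold higher and 11.4% at least 1.5-fold lower, against 20% and 13.3% of the measured members. How the members stood against all genes depended on the filter and the bound. Without a filter, 10 of 52 members were higher against 24.0% of all genes, and 8 were lower against 21.5%. At 2-fold, 3 of 45 were higher against 5.95% and 2 lower against 4.35%, near the background. The median log2 ratio of the measured members, H222P over wild type, was 0.13, and that of all measured genes was −0.01. The whole interval lay beyond 1.5-fold for 5 higher members (Dkk1, Lgr5, Wnt9b, Fzd5 and Lef1; 11.1% against 6.8% of all measured genes) and for 3 lower ones (Wnt16, Fzd9 and Fzd6; 6.67% against 6.45%). Dkk1, Lgr5 and Wnt9b were under 1 CPM in the wild-type library and Wnt16 was under 1 CPM in the H222P library, so these 4 passed the filter only through the library in which they were high. Scaling by total counts, which moved the median of all measured genes to 0.15, gave 10 higher and 3 lower members, and higher genes were then 66.3% of all genes past 1.5-fold in place of 48.8% (76.9% in place of 60% for the members).

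**Figure D1:**
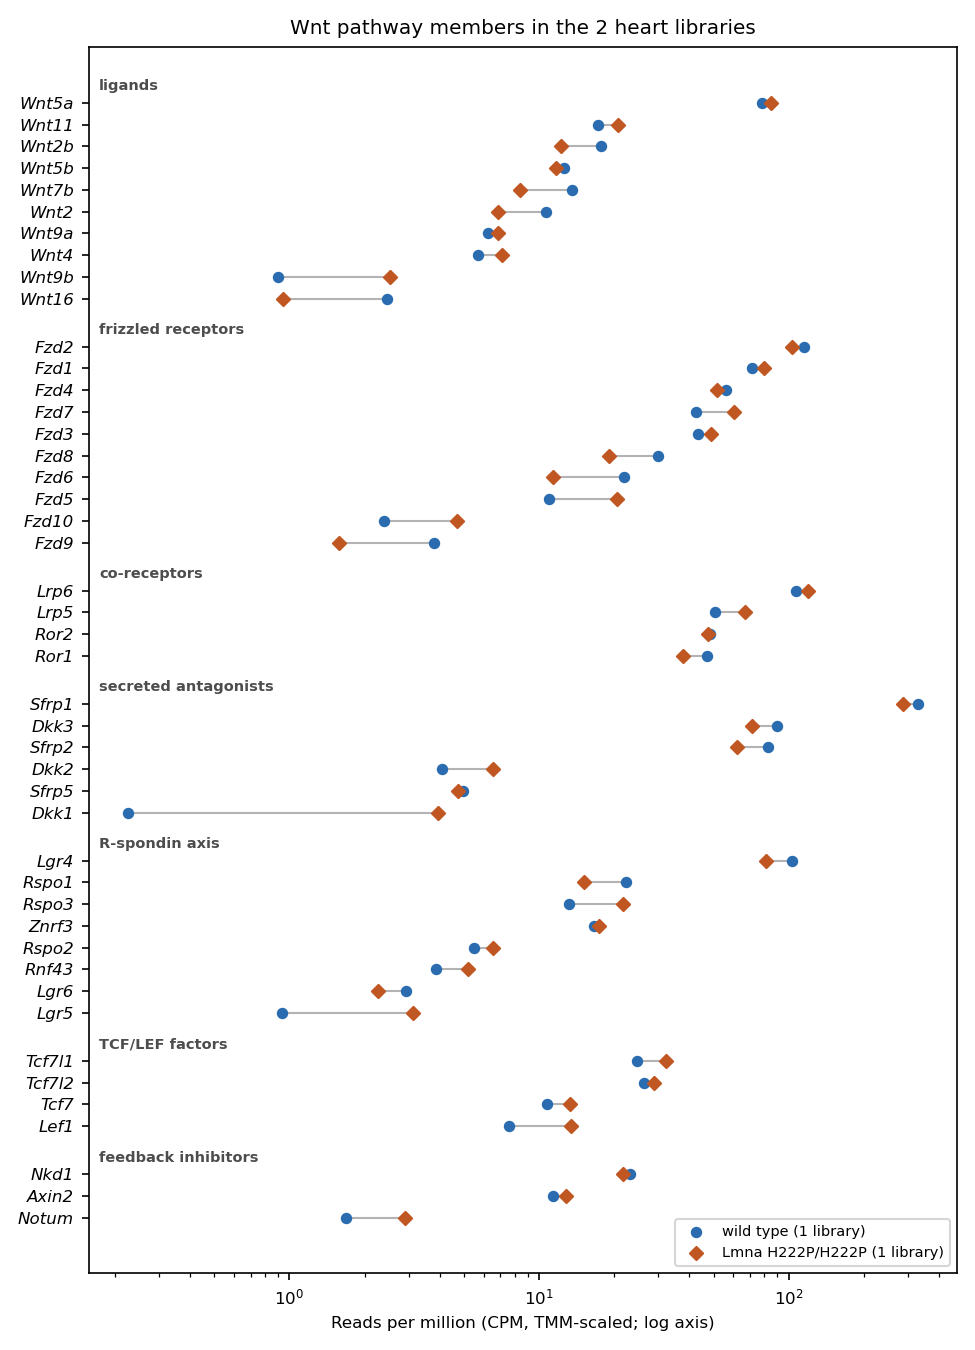
Levels of the 45 measured Wnt pathway members in CPM (log axis), grouped by role, with 1 point for each library (circles, wild type; diamonds, Lmna H222P/H222P). Abundant members such as Sfrp1 (328 and 286 CPM) lie close together, and the widest gap is that of Dkk1 (0.226 and 3.93 CPM).

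Promoter sequence was read for the 38 members with an entry in the RefSeq table (build GRCm38.p6), as 47 windows of 300 bases that run from 250 before to 50 after each start. The letters searched were ATCAAAG and AACAAAG, forms of the TCF/LEF core, on both strands (reverse complements CTTTGAT and CTTTGTT). Both forms share the letters CAAAG at the same place, so they cannot match the same bases, and either form was found in 9.33% of all 32851 windows and in 6 of the 47 member windows (12.8%). The 6 belonged to Dkk1, Fzd7, Wnt11, Wnt5b, Tcf7l2 and Wnt3, and a match is a description of letters, not a binding site. The stretches of Dkk1, Fzd7, Wnt11 and Wnt5b, an antagonist, a receptor and a pair of ligands, are shown with the match in capitals. They were picked for their unlike ratios, with these known.

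Dkk1: cccatcccggCTTTGTTgtcttccctg
Fzd7: ccacagagaaAACAAAGcgcgctattg
Wnt11: acgtgggcggATCAAAGcgacggtccg
Wnt5b: gtaagtctctCTTTGATctgctccctg

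These lie at chr19:30549578-30549604 (minus strand) for Dkk1, chr1:59482007-59482033 (plus) for Fzd7, chr7:98835051-98835077 (plus) for Wnt11 and chr6:119449441-119449467 (minus) for Wnt5b. The matches begin 98, 130, 51 and 71 bases before the RefSeq start. GENCODE places the start of Dkk1 farther upstream, so that the Dkk1 stretch lies inside its annotated gene (chromosome 19, 30545863 to 30549665, mm10), and the Wnt5b stretch also lies inside its gene, at an inner start. The log2 ratio was 4.03 for Dkk1, 0.51 for Fzd7, 0.26 for Wnt11 and −0.10 for Wnt5b. Since these 4 were picked for unlike ratios, their spread is not a result. Of the members with a match that are not shown, Tcf7l2 had a log2 ratio of 0.13 and Wnt3 was below 1 CPM. Neither form was found in the windows of Axin2 and Lef1, the textbook transcriptional readouts of beta-catenin signalling. The 250 bases before their first RefSeq start are shown for these readouts, chr11:108920099-108920348 and chr3:131110047-131110296, both on the plus strand.

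Axin2: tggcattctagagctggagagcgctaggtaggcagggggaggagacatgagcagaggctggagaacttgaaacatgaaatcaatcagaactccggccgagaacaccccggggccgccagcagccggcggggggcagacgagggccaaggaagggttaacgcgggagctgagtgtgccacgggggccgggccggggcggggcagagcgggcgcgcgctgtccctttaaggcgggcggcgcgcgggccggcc
Lef1: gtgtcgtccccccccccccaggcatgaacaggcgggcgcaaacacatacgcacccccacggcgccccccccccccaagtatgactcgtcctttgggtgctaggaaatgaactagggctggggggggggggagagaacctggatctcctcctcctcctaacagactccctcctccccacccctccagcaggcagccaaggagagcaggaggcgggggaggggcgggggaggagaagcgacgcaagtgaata

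The member windows were rich in G and C. Their median GC content was 66.3% for the 30 measured members with a window and 70.8% for the 8 members below 1 CPM, against 52.8% over all genes with a window. The median ratio of observed to expected CpG was 0.76 and 0.74 in these sets and 0.39 over all genes. The medians of the near-silent and the measured members thus lay close together, on few windows.

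Among the 19 Wnt ligands, 10 were measured, and Wnt5a stood above the others in both libraries. Wnt5a, which signals largely without beta-catenin, had 2422 wild-type and 2256 H222P reads, and per length 9.99 and 10.9 RPKM (CPM per kilobase of annotated exon). It took 28.5% and 33.2% of the summed per-length level of the ligands. Its log2 ratio was 0.12 (0.04 to 0.21), so the most abundant ligand differed little between the libraries.

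Behind Wnt5a the order of the ligands changed. In the wild-type library Wnt5b (4.74 RPKM), Wnt2 (4.74 RPKM), Wnt2b (4.21 RPKM) and Wnt11 (4.17 RPKM) followed at nearly the same level. In the H222P library Wnt11, a ligand of the outflow tract, moved to the second place (4.99 RPKM), and Wnt2 and Wnt2b stood at 3.05 and 2.90 RPKM. Wnt11 had 535 and 547 reads (log2 ratio 0.26, 0.08 to 0.43). Wnt5b had 390 and 311 reads (−0.10, −0.32 to 0.12, and 0.05 with total counts).

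Wnt2, Wnt7b and Wnt2b were lower in the H222P library. Wnt2 (chromosome 6, 17988940 to 18030585), a ligand of lung mesenchyme, had 331 wild-type and 182 H222P reads, 1.55-fold lower (1.29 to 1.87). Wnt7b (chromosome 15, 85535437 to 85582473), a ligand of lung epithelium, had 420 and 223 reads, 1.61-fold lower (1.37 to 1.90). Wnt2b, which acts with Wnt2 on the lung field of the foregut, had 548 and 323 reads, 1.45-fold lower (1.26 to 1.67). With total counts for scaling Wnt2 and Wnt7b fell short of 1.5-fold (log2 ratios −0.48 and −0.53).

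Some lung markers were also lower in the H222P library, while others of the same lists were higher. The surfactant gene Sftpc had 211 wild-type and 1 H222P reads, the lung and thyroid factor Nkx2-1 had 381 and 161, and Tbx4, of lung mesenchyme, 425 and 202. These 3 were picked from the marker lists after their values were seen. The whole epithelial list (lung and gut together) had 3 of 10 members at least 1.5-fold higher and 2 lower. Its summed level was 141 CPM against 173 CPM. The list that holds Tbx4, lung and foregut mesenchyme, had 5 of 7 at least 1.5-fold higher and only Tbx4 lower. It summed to 57.2 CPM against 160 CPM. The part of such RNA in the ligand values was not tested.

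Wnt16 and Wnt9b differed most among the 10 measured ligands, both at low counts. Wnt16 (chromosome 6, 22288227 to 22298522), known from bone and skin, had 76 wild-type and 25 H222P reads, 2.56-fold lower (1.63 to 4.26). Wnt9b (chromosome 11, 103727364 to 103749821), known for the induction of kidney tubules, had 28 and 67 reads, 2.77-fold higher (1.78 to 4.52). Wnt4, also a ligand of kidney tubules, had 176 and 188 reads (log2 ratio 0.32, 0.02 to 0.63), and Wnt9a had 194 and 181 reads (log2 ratio 0.13, −0.17 to 0.43). Only for Wnt16 and Wnt9b among the ligands did the whole interval lie beyond 1.5-fold.

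The other 9 of the 19 ligands stayed below 1 CPM. Wnt1, Wnt3a, Wnt8a and Wnt8b had no read in either library, which allows up to 0.0968 and 0.113 CPM (3 reads). Wnt3 and Wnt10a had 1 read in each library, Wnt7a had 1 and 3, and Wnt10b had 5 and 5. Wnt6 had 23 and 8 reads, 2.36-fold lower with an interval of 1.06 to 6.35.

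Several ligand genes lie beside a paralog, and in each pair the reads lay mostly on 1 of the neighbours. On chromosome 11 Wnt9a lies 16.2 kb from Wnt3a, and Wnt9b lies 24.3 kb from Wnt3. Wnt9a had 194 and 181 reads beside a Wnt3a without reads, and Wnt9b had 28 and 67 reads beside a Wnt3 with 1 read in each library. Wnt6 and Wnt10a on chromosome 1 are 6.19 kb apart, and Wnt10b and Wnt1 on chromosome 15 are 11.7 kb apart. In all 4 pairs 1 neighbour had at most 1 read in each library.

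**Figure D2:**
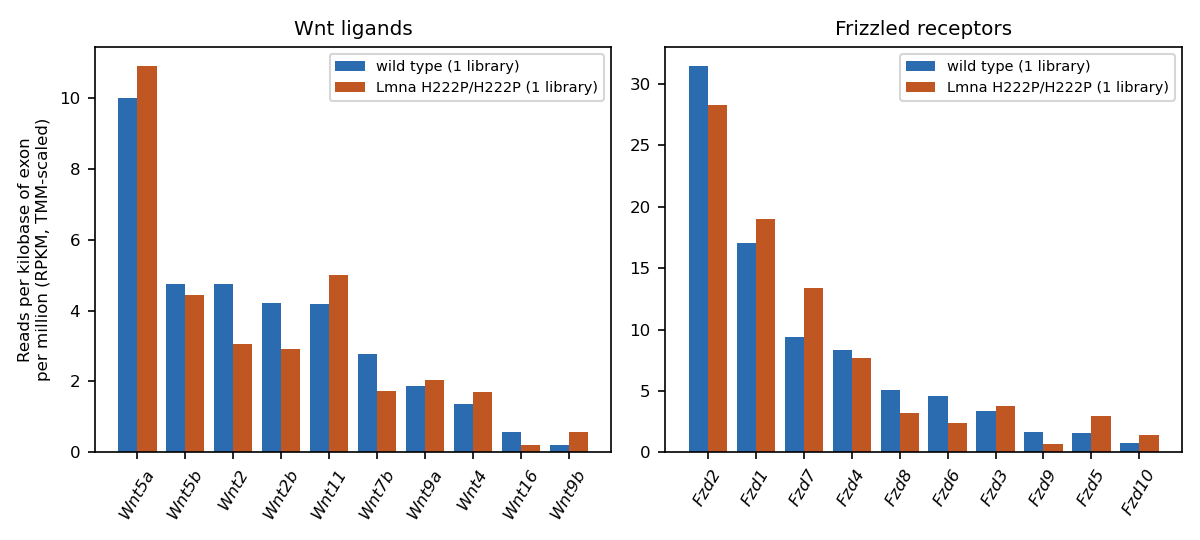
Levels per length (RPKM) of the 10 measured Wnt ligands and the 10 frizzled receptors, with 1 bar for each library. Wnt5a (9.99 and 10.9 RPKM) and Fzd2 (31.4 and 28.3 RPKM) lead their families in both libraries.

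All 10 frizzled receptors were measured, and the 4 most abundant per length lay within 1.5-fold, while 5 of the other 6 did not. Fzd2 (31.4 and 28.3 RPKM), Fzd1 (17.0 and 19.0 RPKM), Fzd7 (9.36 and 13.3 RPKM) and Fzd4 (8.33 and 7.71 RPKM) held ranks 1 to 4 in both libraries. Fzd1, Fzd2 and Fzd7 form a closely related subgroup of the family. Fzd2 had 3567 and 2743 reads (log2 ratio −0.15, −0.22 to −0.08), which was 0.00 with total counts. Fzd1 had 2216 and 2113 reads (log2 ratio 0.16, 0.07 to 0.24). Fzd7, the receptor with the greatest gap among these 4, had 1315 and 1602 reads and a log2 ratio of 0.51 (0.40 to 0.62), and passed 1.5-fold with total counts (0.66).

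Past 1.5-fold were 5 of the 10 receptors, 2 higher and 3 lower, where 10.9% of all measured genes were higher and 11.4% lower. Fzd5 (chromosome 1, 64730558 to 64737751), a receptor of the beta-catenin branch, had 339 wild-type and 542 H222P reads, 1.87-fold higher (1.63 to 2.15). Fzd10 (chromosome 5, 128600844 to 128604093) had 74 and 124 reads, 1.95-fold higher (1.46 to 2.65). Fzd6 (chromosome 15, 39006034 to 39038188), known for the orientation of hair, had 681 and 301 reads, 1.93-fold lower (1.69 to 2.22). In the per-length order Fzd6 and Fzd5 thus changed sides, from 4.56 and 1.58 RPKM in the wild-type library to 2.36 and 2.96 RPKM in the H222P library.

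Fzd8 (chromosome 18, 9212163 to 9218136) had 932 and 504 reads, 1.58-fold lower (1.42 to 1.77), and fell short of 1.5-fold with total counts (log2 ratio −0.51). Fzd9 (chromosome 5, 135248938 to 135251230), known from brain and bone, had 118 and 42 reads, 2.38-fold lower (1.68 to 3.50). Fzd3, a receptor of axon guidance and planar cell polarity, had 1348 and 1290 reads, and Fzd4, which also binds the vessel factor Norrin, had 1734 and 1373, with log2 ratios of 0.16 and −0.11 (0.04 for Fzd4 with total counts). The summed level of the 10 receptors, those within 1.5-fold among them, was 398 and 401 CPM, a like level in both libraries.

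None of the 4 co-receptors reached 1.5-fold, where 22.3% of all measured genes did in either direction, so most genes of any kind did not. Lrp6 had 3303 and 3167 reads (log2 ratio 0.17, 0.09 to 0.24) and Lrp5 had 1575 and 1766 (0.39, 0.29 to 0.49). Both are co-receptors of the beta-catenin branch, and both stood above 0. Ror2 and Ror1, receptors for Wnt5a, had 1499 and 1264 reads (−0.02, −0.13 to 0.09, and 0.13 with total counts) and 1464 and 996 reads (−0.33, −0.45 to −0.21). Per length Ror2 was the most abundant of the 4 in both libraries (11.4 and 11.3 RPKM), and Ror1 moved from the second to the last place.

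**Figure D3:**
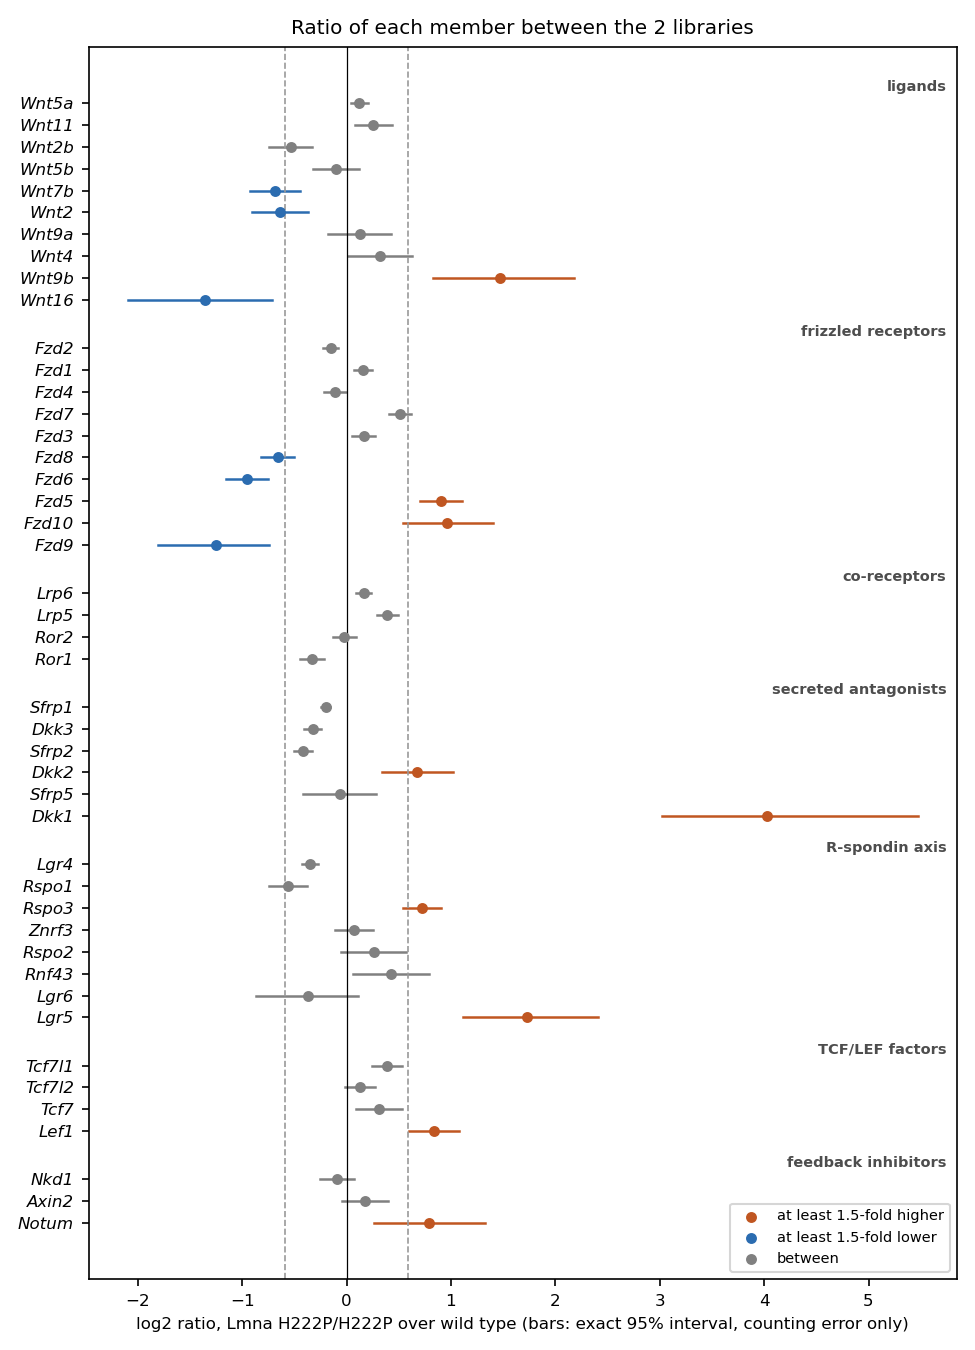
Log2 ratio of each measured member, Lmna H222P/H222P over wild type, with its exact 95% interval for counting error; dashed lines mark 1.5-fold. The interval of Dkk1 (3.03 to 5.47) lies farthest from 0, and the intervals of Fzd6, Fzd9 and Wnt16 lie below the lower line.

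Per length, the secreted antagonists Sfrp1 and Sfrp2 were the most abundant of all members in both libraries. Sfrp proteins bind Wnt ligands outside the cell. Sfrp1 had 10168 wild-type and 7570 H222P reads (log2 ratio −0.20, −0.24 to −0.16, and −0.05 with total counts) at 75.1 and 65.4 RPKM. Sfrp2 had 2567 and 1643 reads (log2 ratio −0.42, −0.51 to −0.33, and −0.26 with total counts). Sfrp5, at 154 and 126 reads, had −0.06 (−0.41 to 0.29), which was 0.09 with total counts. Thus 0 of 3 measured Sfrp genes reached 1.5-fold, where 22.3% of all measured genes did in either direction. The sum of the family was 416 CPM against 353 CPM (log2 ratio −0.24, −0.28 to −0.20). Sfrp4 was below 1 CPM with 13 and 3 reads, 3.30-fold lower with a counting interval of 1.02 to 20.3.

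Dkk1 showed the greatest ratio of all measured members. Dkk1, Dkk2 and Dkk4 are known to act on the co-receptors Lrp5 and Lrp6, and Dkk1 is also a transcriptional target of beta-catenin. Dkk1 (chromosome 19, 30545863 to 30549665) had 7 wild-type and 104 H222P reads, 16.3-fold higher (8.14 to 44.3). With so few wild-type reads the fold depends on the prior count, and a prior of 5 gave a log2 ratio of 3.41 in place of 4.03. Its level in the H222P library, 3.93 CPM, was still low. Per length it stood at 0.0931 and 1.62 RPKM, far below Dkk3 at 26.7 and 21.3 RPKM.

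The other Dkk genes gave smaller ratios. Dkk2 (chromosome 3, 132085292 to 132180304) had 127 and 174 reads, 1.60-fold higher (1.27 to 2.03). Dkk3, the abundant and divergent member of the family, had 2775 and 1893 reads (log2 ratio −0.33, −0.41 to −0.24, and −0.17 with total counts). Dkk4 had no read in either library. Since Dkk3 outweighed the others, the summed family level was 93.9 and 82.0 CPM (log2 ratio −0.20, −0.28 to −0.12), a difference like that of the Sfrp sum.

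R-spondins and their receptors make cells more sensitive to Wnt: an R-spondin bound to Lgr4, Lgr5 or Lgr6 removes Rnf43 and Znrf3, ligases that clear frizzled receptors from the surface. Rspo1 and Rspo3 stood apart. Rspo3 (chromosome 10, 29452416 to 29535867), known for vessel development, had 409 wild-type and 577 H222P reads, 1.65-fold higher (1.45 to 1.88). Rspo1, known from the ovary, had 691 and 401 reads, 1.47-fold lower (1.30 to 1.67), just inside the 1.5-fold bound and outside it with DESeq2 size factors (log2 ratio −0.59). Per length Rspo1 was 11.5 and 7.81 RPKM and Rspo3 4.27 and 7.05 RPKM, so that their levels were closer to each other in the H222P library.

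The remaining R-spondins gave no ratio past 1.5-fold. Rspo2, known from limb and lung, had 170 and 174 reads (log2 ratio 0.26, −0.05 to 0.57). Rspo4 had 3 and 2 reads. The Rspo family summed to 41.1 CPM and 43.6 CPM, a like level in both libraries.

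Of the R-spondin receptors, Lgr4 carried most reads and Lgr5 the greatest ratio. Lgr4 had 3204 and 2150 reads (log2 ratio −0.35, −0.43 to −0.27). Lgr5 (chromosome 10, 115450311 to 115587780), the stem cell marker of the gut and itself a target of beta-catenin, had 29 wild-type and 83 H222P reads, 3.31-fold higher (2.17 to 5.30). Lgr6 had 91 and 60 reads (log2 ratio −0.37, −0.87 to 0.11). Lgr5 stayed a minor receptor, since Lgr4 exceeded it per length 193-fold in the wild-type library and 45.2-fold in the H222P library. The ligases gave no ratio past 1.5-fold, with 513 and 461 reads for Znrf3 (0.07, −0.11 to 0.26) and 120 and 138 reads for Rnf43 (0.43, 0.06 to 0.79).

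All 4 TCF/LEF factors had log2 ratios above 0, where the median of all measured genes was −0.01, and Lef1 was past 1.5-fold. The interval of Tcf7l2 held 0. DESeq2 size factors, which lower all ratios by the same small amount, gave 0.10 to 0.81 for these 4. Lef1 (chromosome 3, 131110471 to 131224356) had 234 wild-type and 357 H222P reads, 1.78-fold higher (1.51 to 2.11). Tcf7l1, mostly a repressor, had 765 and 857 reads (0.39, 0.25 to 0.53). Tcf7 had 332 and 352 reads (0.31, 0.09 to 0.53), and Tcf7l2 815 and 763 (0.13, −0.01 to 0.28). Per length Tcf7l1 was the most abundant factor (6.29 and 8.25 RPKM) and Lef1 the least abundant (0.859 and 1.53 RPKM) in both libraries.

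Of the 3 feedback inhibitors, Notum was past 1.5-fold, and the intervals of Axin2 and Nkd1 held 0. Axin2, a scaffold of the destruction complex, had 351 and 339 reads (log2 ratio 0.18, −0.04 to 0.40). Nkd1, which acts on Dishevelled, had 716 and 575 reads, −0.09 (−0.25 to 0.07) and 0.06 with total counts. Notum (chromosome 11, 120653788 to 120661175), an enzyme that removes the lipid of Wnt proteins, had 52 and 77 reads (log2 ratio 0.79, 0.27 to 1.33). In all, 11 members share exon bases with a gene on the other strand, which the stranded counts separate. Notum overlaps the antisense genes Notumos and Myadml2os, and with reads of both strands counted together, which leaves out reads shared by overlapping genes, it had 30 and 26 reads and a log2 ratio of 0.02.

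The marker lists that summed higher in the H222P library were hepatocytes, red cell precursors, both lung lists and neural markers. The rest summed lower. Markers of lung and foregut mesenchyme summed to 57.2 and 160 CPM. Barx1, a factor of stomach mesenchyme, had 8 and 1234 reads, the highest ratio of that list. Neural markers summed to 22.2 and 55.5 CPM. Cushion mesenchyme markers had 3 of 6 higher by 1.5-fold or more and 1 lower, with a summed level that was lower (1146 and 1060 CPM). Endothelial and endocardial markers had 6 of 8 at least 1.5-fold lower (1071 and 691 CPM). Epicardial markers had 1 of 7 lower (459 and 377 CPM). Smooth muscle markers had 1 of 5 higher and 1 lower (1335 and 966 CPM), and macrophage markers 1 of 6 lower (101 and 76.8 CPM). The part of any of these in the values of Dkk1, Lgr5, Wnt9b, Rspo3, Fzd5, Fzd6 or the other members past 1.5-fold was not tested.

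**Figure D4:**
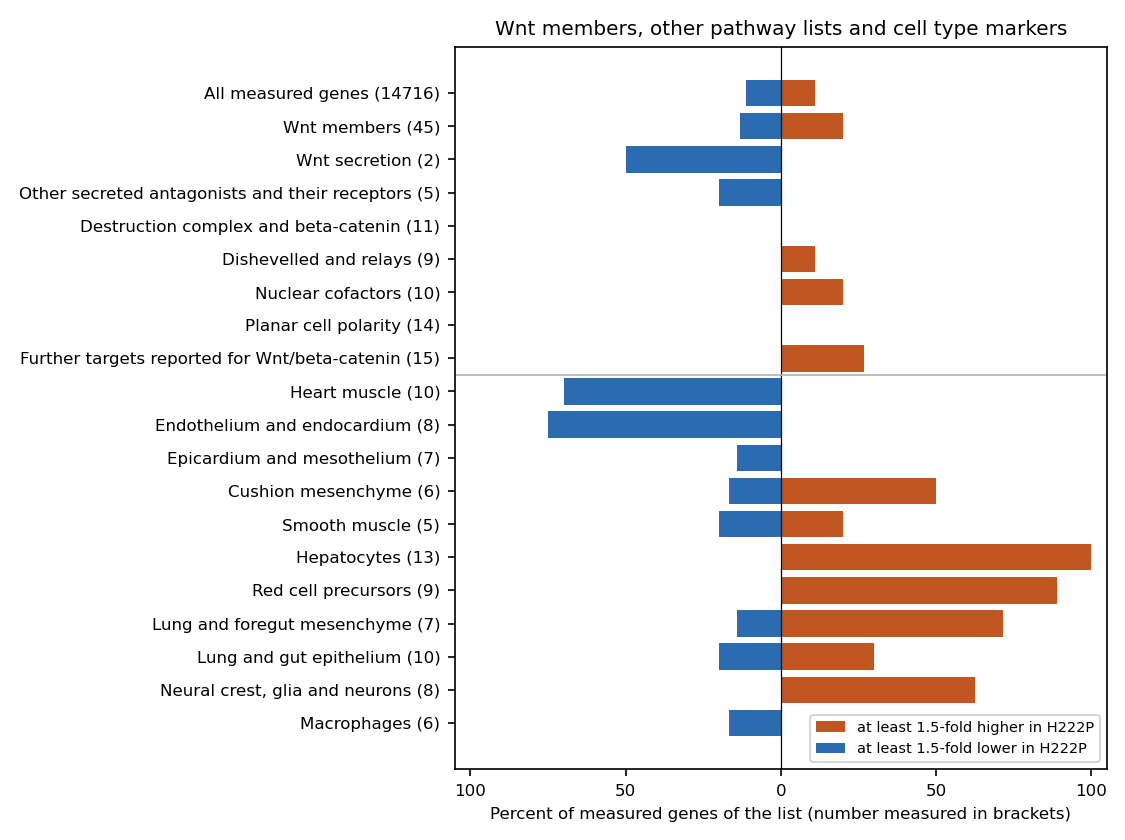
Percent of the measured genes of each list that were at least 1.5-fold higher (right) or lower (left) in the H222P library, for all measured genes, the Wnt members, other Wnt pathway lists (upper block) and cell type markers (lower block). The bars of the Wnt members (20% higher, 13.3% lower) stand beside those of all measured genes (10.9% and 11.4%), and the hepatocyte markers are all higher.

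The remaining machinery of the pathway lay mostly between the bounds. Over 7 lists of 75 other pathway genes, 66 were measured. Past 1.5-fold were 7 higher and 2 lower genes, and 57 lay between, with a median log2 ratio of 0.07. Among all measured genes, 10.9% were higher and 11.4% lower by that much, so most genes of any kind lay between. In the destruction complex list all 11 genes lay between, from −0.17 to 0.40. Ctnnb1, which encodes beta-catenin, had 34247 and 27817 reads (−0.07, −0.10 to −0.05). All 14 measured planar cell polarity genes also lay between. Of these, Daam1, which links Dishevelled to actin, was the lowest (−0.46, −0.52 to −0.39) and Vangl1 the highest (0.36, 0.23 to 0.48). Celsr3, of the same list, missed the filter at a mean of 0.898 CPM. It had 10 and 39 reads, 4.40-fold higher (2.24 to 10.2), and was named after its values were seen.

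Genes of Wnt secretion and of other antagonists held the 2 lower genes. Wls, the carrier that brings Wnt proteins to the surface, had 5595 and 3100 reads, 1.54-fold lower (log2 interval −0.69 to −0.56), and Porcn, the enzyme that adds their lipid, had 110 and 115. Wif1, a secreted Wnt-binding inhibitor also known from the lung, had 140 and 22 reads (log2 ratio −2.42, −3.16 to −1.79), and passed the filter only through the wild-type library. Kremen1, a Dkk receptor, had 2673 and 1528 reads (−0.58, −0.67 to −0.49), and Frzb, a relative of the Sfrp proteins, was the highest of the 5 measured genes of that list at 0.50 (0.18 to 0.81).

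The higher ones came from the nuclear, relay and target lists. The corepressor genes Tle3 (log2 ratio 0.70, 0.59 to 0.81) and Tle1 (0.64, 0.50 to 0.79) were past 1.5-fold, and 8 of 10 nuclear cofactors lay between. Dact1, a Dishevelled-binding protein, had 1062 and 1365 reads (0.59, 0.47 to 0.71). Of 15 measured further targets, 4 were at least 1.5-fold higher and 0 lower (10.9% and 11.4% of all measured genes), with a median of 0.28. Besides Isl1 these were the growth regulator Myc (0.94, 0.79 to 1.10), the guidance receptor Ephb2 (0.85, 0.71 to 0.99) and the transcription factor Sp5 at 28 and 37 reads (0.62, −0.12 to 1.39). Sp5 was under 1 CPM in the wild-type library and so passed the filter only through the H222P library. Of these, Ephb2 and Sp5 were named after their values were seen. Isl1, a factor of heart progenitors and neurons, was the highest (2.26, 2.00 to 2.53), Ccnd2 was the most abundant (0.13, 0.10 to 0.16), and Bambi, a TGF-beta pseudoreceptor, was the lowest (−0.54, −0.62 to −0.47). The list was chosen with earlier results of these data known, so its direction is not independent evidence.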

How the data were processed

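RNA-seq was done on 1 wild-type and 1 Lmna H222P/H222P library of E13.5 hearts. The authors deposited raw read counts per gene, not normalized; per the submitters' processing notes STAR, HTSeq and DESeq and the build mm10 were used, without versions or roles, and the annotation release is not named in the sources used here. The reverse-strand column was used, whose reads exceeded those of the forward-strand column 19.3-fold and 20.5-fold; 4 summary entries per table were left out of library sizes, and reads mapped to several places (5.37% and 6.09%) are not in the gene counts. Counts were scaled by TMM (edgeR 4.0.16, R 4.3.3; factors 0.948 and 1.05). Log2 ratios used a prior count of 0.5, and exact 95% intervals of the share of reads came from scipy 1.17.1 in Python 3.11.15. No molecular identifiers are named, so reads may not be independent molecules. A gene with a mean of 1 CPM or more was measured, and a difference counted from 1.5-fold, with no test. Positions and summed exon lengths for RPKM came from GENCODE M21 (GRCm38, the assembly of mm10), promoters from RefSeq GRCm38.p6. The steps were tested on simulated counts with counting error only and as many genes raised as lowered. A difference mostly in 1 direction, like that of the hepatocyte markers, was not simulated. Every member with at least 1 CPM could be named; from each other pathway list the lowest, highest and most abundant gene and the next in size could be named. The 7 members below 1 CPM with a read, 3 lung markers, Celsr3, Ephb2 and Sp5 were named after their values were seen. The members and lists were chosen with earlier results of these data known. The scaling (total counts, DESeq2 1.42.0, TMM on protein-coding genes or without globin, liver and red cell genes), the filter (none, 5 CPM), the prior (5), the column (unstranded), the depth (deeper library thinned) and the bound (2-fold) were varied.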

Additional observations from a re-analysis of the deposited data

Results flagged for a closer look

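Reads on the strand opposite to Fzd7, which enter no comparison above, were above the wild-type control in the H222P library. There were 5 wild-type and 17 H222P reads (log2 ratio 1.90, 0.49 to 3.79). Fzd7 was picked from all 57 members as the only member with an opposite-strand interval wholly on the higher side. No allowance was made for the number of members looked at. Over all 57 members the opposite strand held 0.851% (wild type) and 0.80% (H222P) of stranded reads.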

How the results depend on the processing

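With 1 library per genotype, no result could be recomputed without a library, and each rests on both. Of the 15 members past 1.5-fold, 11 (8 higher, 3 lower) stayed past it under every alternative of scaling, prior count, column and depth; Wnt2, Wnt7b and Fzd8 were lost with total counts and Notum with the unstranded column. Total counts gave 3 lower members in place of 6 (and 10 higher in place of 9), as the scaling raised every log2 ratio by the same amount. A filter at 5 CPM left 35 members and gave 4 higher and 4 lower (7.11% and 9.25% of all genes), and a 2-fold bound gave 3 higher and 2 lower (5.95% and 4.35% of all genes). The cause of the drop at 5 CPM was not tested. Apart from total counts, the 5 CPM filter and the 2-fold bound, higher counts ranged from 8 to 10 and lower counts from 6 to 8. Over all settings, total counts among them, the median of the members ranged from 0.10 to 0.28. No member past 1.5-fold changed sign. For the alternatives of scaling this was fixed in advance, since each shifts all ratios by the same amount, smaller than 1.5-fold. Of the recomputed ratios of single members, 298 lay within the main counting interval and 17 outside it, 16 of these with total counts. Depth limits the members with few reads: Dkk1 rests on 7 wild-type reads, Wnt9b on 28 and Lgr5 on 29.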
